A study of Mus musculus with 6 samples.

Results

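The 1700-series genes carry the clone names that the RIKEN full-length cDNA project gave to transcripts from its testis library, and many of their proteins have no assigned function. All genes listed as protein-coding whose name has the form 1700, further digits and letters, and Rik were taken, which gave 207 genes of the 26743 in the deposited table and of its 19296 protein-coding genes. Their levels were compared between the testes of 3 wild-type (WT) and 3 Trf2-/- mice, all at 21 days of age, by RNA-seq of total RNA depleted of ribosomal RNA. The Trf2-/- mice lack a working Trf2, the gene for a relative of the TATA-box binding protein, which is listed as Tbpl1. The study's methods name a 129/SvPas background under the tagged Trf2 line that it also made, without saying whether the mice used here share it, and the part of the gene that the Trf2-/- allele removes is not given in the sources used here. The comparison asks which of these genes depend on Trf2 in the juvenile testis.

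Trf2 belongs to the machinery that starts transcription by RNA polymerase II, and it is abundant in the testis. Germ cells divide as spermatogonia, pass through meiosis as spermatocytes and then become haploid round spermatids, which switch on a large set of genes for the acrosome, the flagellum and the packing of DNA. Male mice without Trf2 are sterile because spermatids do not complete their elongation. Many clones of the 1700 series later proved to come from such late germ cell genes. The whole testis was used here, in which fewer cells of a type and less RNA per cell cannot be told apart.

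The names give little away. The deposited description of all 207 genes was no more than the clone name, so no protein domain could be read from it. No Gene Ontology term was attached to 146 of them (70.5%), against 11.3% of all protein-coding genes. RefSeq (GRCm38.p6) held 197 of the 207, and 87 of these now have another symbol, which is given in parentheses below. It lists 160 as protein-coding and 37 otherwise, namely 28 as long non-coding RNAs, 8 as pseudogenes and 1 as another RNA, so the annotations differ. The genes lie on 20 chromosomes, with at most 17 on one, and 63 overlap another gene. They are short, with a median deposited length of 1138 bases (330 to 9754) against 2914.5 bases for all protein-coding genes.

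The 150 bases before the start of transcription are printed for 8 of the genes that the results turn on. Of these, 5 are among the largest decreases, Spata45 being near the detection limit. Llcfc1, with a TATAAA, is near that limit too, and 2 are at high level. The sequences are from RefSeq, build GRCm38.p6, 5′ to 3′ on the strand of the gene, and end 1 base before the start. Capitals mark TGACG, the core of a cAMP response element (the site of CREM, an activator of spermatid genes), GTTGCC, one arm of an X-box (the site of RFX factors, which act on ciliary genes), both on either strand, and TATAAA on the strand of the gene. The choice of the start to print could turn on the presence of a marked motif, so these 8 sequences do not show how often the motifs occur. The shares over all members with a promoter are given below.
1700022P22Rik (Spata45), GTTGCC on the other strand, chr1:191036669-191036818 (plus strand): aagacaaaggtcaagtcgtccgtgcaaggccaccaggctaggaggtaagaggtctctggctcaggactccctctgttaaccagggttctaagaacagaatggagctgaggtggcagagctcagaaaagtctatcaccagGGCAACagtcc
1700061J05Rik (Tex33), GTTGCC on the other strand, chr15:78395913-78396062 (minus strand): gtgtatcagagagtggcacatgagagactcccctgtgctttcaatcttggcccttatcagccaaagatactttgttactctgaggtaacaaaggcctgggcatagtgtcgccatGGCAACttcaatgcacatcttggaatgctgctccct
1700061G19Rik (Acsbg3), GTTGCC, chr17:56875334-56875483 (plus strand): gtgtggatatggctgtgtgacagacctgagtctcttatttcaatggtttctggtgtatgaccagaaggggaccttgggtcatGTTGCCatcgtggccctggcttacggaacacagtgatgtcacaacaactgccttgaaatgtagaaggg
1700113H08Rik, GTTGCC, chr10:87057896-87058045 (plus strand): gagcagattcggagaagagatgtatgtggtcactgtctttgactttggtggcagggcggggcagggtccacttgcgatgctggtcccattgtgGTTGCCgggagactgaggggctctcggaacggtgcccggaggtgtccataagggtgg
1700034I23Rik, TGACG, chr3:40902502-40902651 (minus strand): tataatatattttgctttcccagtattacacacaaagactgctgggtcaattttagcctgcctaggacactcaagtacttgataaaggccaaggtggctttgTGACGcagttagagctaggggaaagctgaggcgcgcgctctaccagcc
1700034O15Rik (Llcfc1), TATAAA, chr6:41684281-41684430 (plus strand): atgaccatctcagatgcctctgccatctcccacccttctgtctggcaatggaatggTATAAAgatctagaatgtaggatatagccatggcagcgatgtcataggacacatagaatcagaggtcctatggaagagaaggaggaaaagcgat
1700019N12Rik (Catsperz), none of the 3, chr19:6925381-6925530 (minus strand): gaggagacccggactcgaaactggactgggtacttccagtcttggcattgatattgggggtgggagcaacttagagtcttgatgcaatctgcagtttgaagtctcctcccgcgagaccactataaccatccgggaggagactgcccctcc
1700102P08Rik, GTTGCC on the other strand, chr9:108392684-108392833 (plus strand): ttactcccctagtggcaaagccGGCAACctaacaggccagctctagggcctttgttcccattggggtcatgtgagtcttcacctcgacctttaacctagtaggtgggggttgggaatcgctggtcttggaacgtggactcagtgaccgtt

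Over the 250 bases before each start, a promoter was at hand for 158 of the 207 genes, and a gene counted once if any of its starts held the motif. GTTGCC stood in 36 of the 158 (22.8%), against 11.8% of all 27025 genes of the same table. It stood in 12 of 40 genes called lower (30.0%) and in 16 of 84 tested and not called (19.0%). The copies in Spata45, Tex33, 1700113H08Rik and Acsbg3 begin -11, -36, -57 and -68 bases from the start. In 1700102P08Rik, which was not called, the copy begins at -128. TGACG stood in 38 of 158 (24.1%) against 19.8% of all genes, in 8 of the 40 called lower and in 26 of the 84 not called (31.0%). The full response element TGACGTCA, which contains TGACG on both strands, stood in 1 of the 158 (0.633%) against 1.77% of all genes. TATAAA stood in 10 (6.33%) against 8.94%, and between -40 and -16, where a working TATA box would lie, in 0 of 158 against 2.41% of all genes. These are matches of letters and were not tested.

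Between 21582123 and 29859347 reads per WT mouse and between 15187062 and 24530489 per Trf2-/- mouse were counted on genes, the shallowest library being that of Trf2-/- mouse 3. A count of 0 allows up to 3 counts, which are between 0.104 and 0.144 CPM (counts scaled to library size) in WT and between 0.119 and 0.189 CPM in Trf2-/- mice. Tbpl1 itself had 8840, 7391 and 6119 counts in WT and 1586, 1500 and 882 in Trf2-/- mice, a log2 change of -2.27 ± 0.06 (SE, edgeR adjusted p = 1.18e-06). The germ cell and somatic marker lists were detected in both genotypes. Of 13 tested markers of round spermatids, 9 were called lower, against 4.3% of all tested genes, and their median log2 fold change was -1.89. The 10 spermatogonial and 9 early spermatocyte markers had medians of 0.08 and 0.06. By the adjusted p, 1 spermatogonial (Kit) and 3 early spermatocyte markers (Sycp1, Sycp3 and Hormad1) were higher, and 1 early spermatocyte marker (Syce1) was lower. Of 10 pachytene spermatocyte markers 8 were lower by the adjusted p, against 20.2% of all tested genes, with a median of -0.47. Of 9 Sertoli cell and 8 macrophage markers 5 and 4 were higher by the adjusted p, with medians of 0.22 and 0.66. The same held for 1 each of 8 Leydig and 6 peritubular cell markers, and for 11.2% of all tested genes. The DNA-packing gene Tnp1, which belongs to elongating spermatids, had at most 4 counts in any mouse.

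The 1700-series genes took 0.889%, 0.854% and 0.852% of all gene counts in WT mice 1 to 3, and 0.631%, 0.664% and 0.544% in Trf2-/- mice 1 to 3. Every Trf2-/- mouse lay below every WT mouse. Summed over the 207 genes, the level was 9244, 8769 and 8813 CPM in WT and 6135, 6450 and 5219 CPM in Trf2-/- mice. The median tested member stood -0.62, -0.55 and -0.85 (log2) from its WT mean in Trf2-/- mice 1 to 3, while the median of all tested genes stood between 0.003 and 0.041. Trf2-/- mouse 3 had the lowest of the 3 mutant values in 104 of 155 tested members (67.1%), against 37.5% of all tested genes. The sum of the round spermatid markers is mostly Crem (119 CPM in WT and 92.9 CPM in Trf2-/- testis), so it is given without it. The other 14 markers summed to between 22.96 and 27.4 CPM in WT mice and to 11.1, 12.1 and 9.41 CPM in Trf2-/- mice 1 to 3, the lowest in mouse 3. Of these markers 7, Acrv1, Catsper4, Gapdhs, Spaca3, Spaca4, Spaca7 and Sun5, had no more than 3 counts in each Trf2-/- mouse. The elongating spermatid markers without Odf2, which alone had 1041 CPM in WT and 626 CPM in Trf2-/- testis, summed to between 11.2 and 12.3 CPM in WT and to between 1.98 and 3.94 CPM in Trf2-/- mice. The part of these shifts in the results below was not tested.

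**Figure D1:**
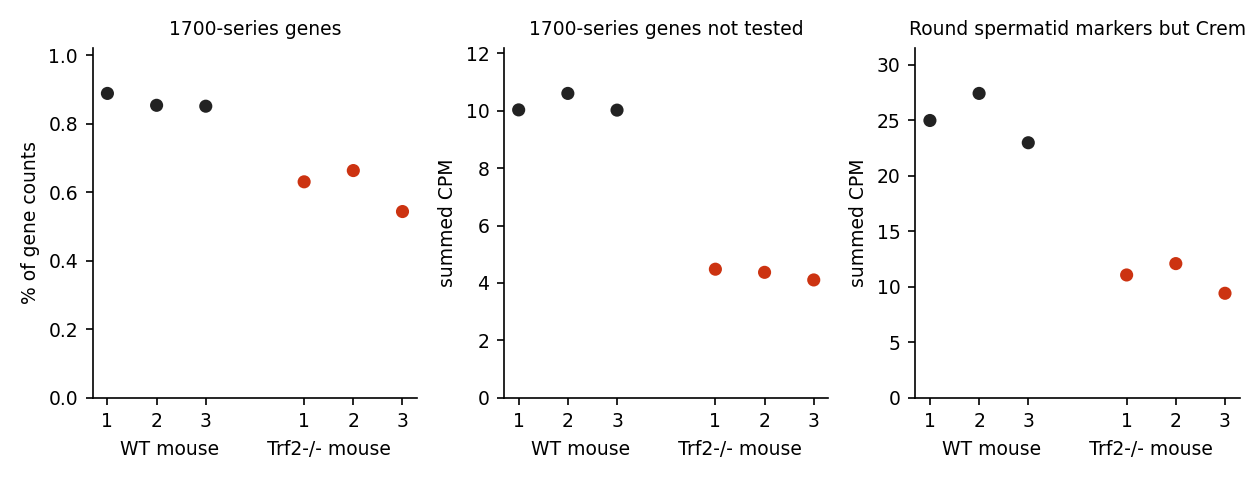
Values in each of the 3 WT (black) and 3 Trf2-/- (red) mice: the percent of gene counts on the 207 1700-series genes, the summed CPM of the 52 members too low to be tested, and the summed CPM of 14 round spermatid markers (without Crem). In all 3 panels the Trf2-/- mice lie below the WT mice, and Trf2-/- mouse 3 is the lowest.

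Enough reads for a test fell on 155 of the 207 genes. With a call defined as an adjusted p under 0.05 and at least a 2-fold difference, 52 of the 155 (33.5%) were called lower in Trf2-/- testis, where 4.3% of all 16924 tested genes were. None was called higher (0 of 155), where 0.609% of all tested genes were. By the adjusted p alone, 106 members (68.4%) were lower, against 20.2% of all genes, and 2 were higher, against 11.2%. In 119 members (76.8%) all Trf2-/- mice lay below all WT mice, against 26.8% of all genes, and in 4 all lay above, against 22.3%. The tested members had a median log2 fold change of -0.70, set against 0.04 for all tested genes. The filter on low counts passed 27 of the 155 through the WT mice while not every Trf2-/- mouse reached its limit, and 0 through the Trf2-/- mice alone, and 22 of those 27 were called lower (81.5%). Of all tested genes 500 passed that way, 268 of them called lower (53.6%), and 357 passed through the Trf2-/- mice alone. The count of calls leans on that filter. With all genes of at least 1 count in the fit, all 207 members were tested and 65 were called lower, where 3.35% of 26743 genes were. With at least 10 counts asked of every mouse, which removes genes that fell out of detection, 29 of 124 members were called lower, against 2.81% of genes. With the shrunken fold changes of DESeq2 the count was 28 of 155, against 2.32%.

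**Figure D2:**
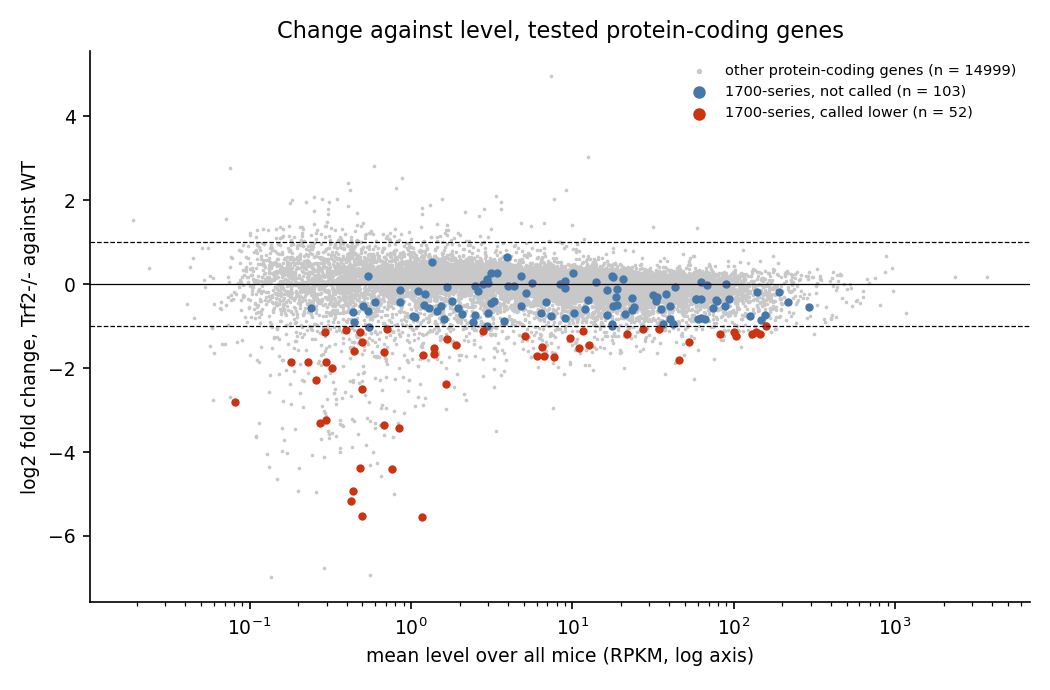
Each point is a tested protein-coding gene, by its mean level over the 6 mice (RPKM, log axis) and its log2 fold change in Trf2-/- against WT. Dashed lines mark 2-fold differences. The 52 members called lower (red) reach from -1.002 to -5.56, the 103 not called are blue, and no member lies above the upper line.

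Genes of related origin lay between the 1700-series protein-coding genes and all genes. The 49-series, protein-coding genes named after further RIKEN clones, had 37 of 186 tested genes called lower (19.9%) and a median of -0.46. The 1700-series genes of other biotypes had 17 of 82 called lower (20.7%) and a median of -0.56. These differences between gene lists were not tested. Within the 1700 series, 39 of 126 members (31.0%) that RefSeq lists as protein-coding were called lower, and 11 of 26 (42.3%) that it lists otherwise. Of the members that overlap no other gene, 38 of 104 were called lower, and of those that do, 14 of 51.

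**Figure D3:**
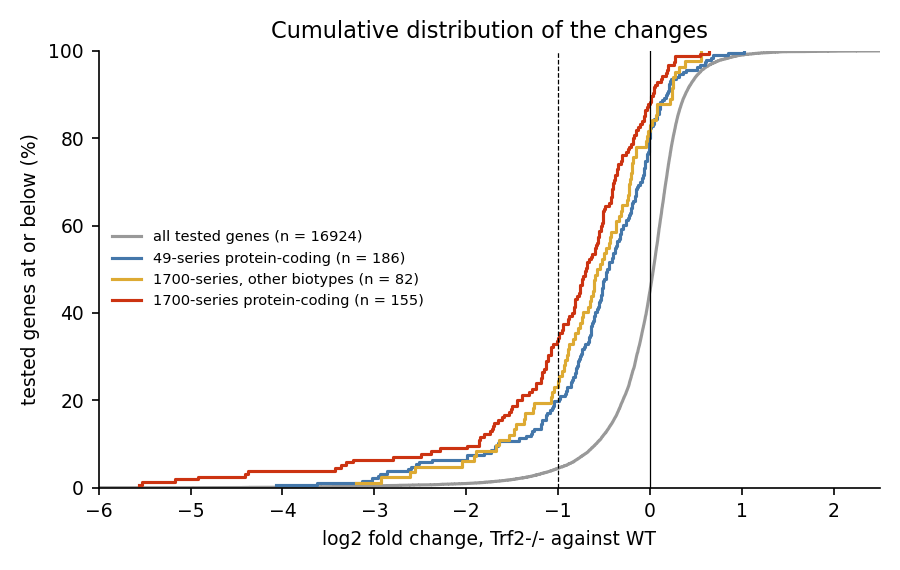
Cumulative share (%) of tested genes at or below each log2 fold change in Trf2-/- against WT, for the 1700-series protein-coding genes (red), the 1700-series genes of other biotypes (yellow), the 49-series (blue) and all tested genes (grey). The medians are -0.70, -0.56, -0.46 and 0.04. The dashed line marks a 2-fold decrease.

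Members were called in every band of level from 0.1 RPKM up, most often in the lowest of these. At a mean level of 10 RPKM (CPM per kilobase of gene length) and over, 15 of 66 members were called lower (22.7%) and 54 were lower by the adjusted p (81.8%, against 30.9% of protein-coding genes in that band), and none of the 15 fell by more than 4-fold. Between 1 and 10 RPKM, 14 of 56 were called (25.0%), and the median log2 fold change, -0.57, was near the -0.56 of the band above. Between 0.1 and 1 RPKM, 22 of the 32 tested were called (68.8%), and 11 fell by more than 4-fold. Of those 32, however, 22 had passed the filter through the WT mice alone, 18 of them called, so the share in that band is set in part by the filter. Over all tested protein-coding genes the shares called in the same bands were 2.07%, 3.32% and 9.71%. Of the 14 members called at more than 4-fold, 9 had at most 3 counts in every Trf2-/- mouse.

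**Figure D4:**
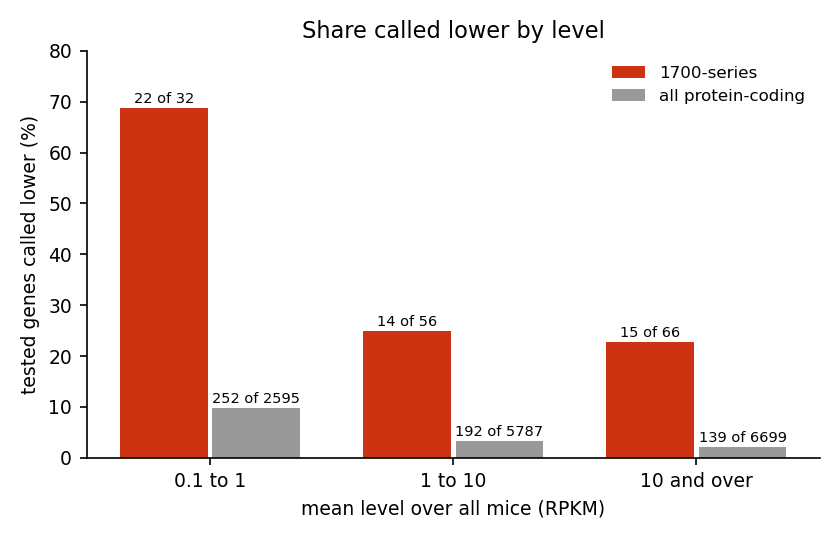
Share of tested genes called lower (%, bars from 0) in 3 bands of mean RPKM over the 6 mice, for the 1700-series genes (red) and for all protein-coding genes (grey), with the counts above the bars. The 1700-series share is 68.8% in the lowest band and 22.7% in the highest, above the grey bar in each.

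The members called lower that were left with at most 3 counts in each mutant had few reads in WT too. 1700022P22Rik (Spata45, a spermatogenesis-associated gene, ENSMUSG00000057072, chr1:192860701-192866821 in NCBIM37) had 19, 29 and 25 counts in WT mice and 1, 0 and 0 in Trf2-/- mice. The pooled ratio of WT to Trf2-/- was 62.1, with an exact 95% interval of 10.8 to 2486 that covers counting error only (edgeR adjusted p = 0.000735). The groups do not overlap. 1700034O15Rik (Llcfc1, which sperm need to fuse with the egg, ENSMUSG00000029867, chr6:41634430-41635716) had 33, 30 and 20 counts in WT and 0, 3 and 0 in Trf2-/- mice, a ratio of 23.5 (7.78 to 116, edgeR adjusted p = 0.00113). Its TATAAA begins at -94 in the sequence above, outside the window in which a TATA box lies. 1700016D06Rik (ENSMUSG00000031509), which still has no name, had 35, 34 and 15 counts in WT and 0, 2 and 0 in Trf2-/- mice, a ratio of 35.7 (9.59 to 299.8, edgeR adjusted p = 0.00103). 1700011L22Rik (ENSMUSG00000031682), also unnamed, had 25, 24 and 23 counts in WT and 0, 1 and 0 in Trf2-/- mice, a ratio of 61.2 (10.6 to 2452, edgeR adjusted p = 0.000505). Its WT counts were close to each other, and the mutants held 1 read in all, as for Spata45. 1700011A15Rik (Krt88, a keratin, ENSMUSG00000063971) had 16, 23 and 17 counts in WT and 1, 0 and 0 in Trf2-/- mice, a ratio of 47.6 (8.21 to 1915, edgeR adjusted p = 0.00089). 1700029H14Rik (ENSMUSG00000031452) had 24, 21 and 14 counts in WT and 1, 3 and 1 in Trf2-/- mice, a ratio of 10.0 (4.07 to 32.0, edgeR adjusted p = 0.00102). None of these 6 reached 2 CPM in any WT mouse.

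The other large decreases left reads in the mutants. 1700061J05Rik (Tex33, a testis-expressed gene, ENSMUSG00000062154, chr15:78208830-78226342) had 98, 103 and 63 counts in WT and 18, 19 and 6 in Trf2-/- mice, or 3.46 ± 0.463 against 0.635 ± 0.228 CPM (mean ± SD, n = 3 mice per genotype). Its log2 change was -2.38 ± 0.25 (SE, edgeR adjusted p = 0.00049). 1700061G19Rik (Acsbg3, of a family of acyl-CoA synthetases, ENSMUSG00000024209, chr17:57014900-57028327) had 61, 71 and 41 counts in WT and 11, 11 and 4 in Trf2-/- mice, a log2 change of -2.49 ± 0.28 (SE, edgeR adjusted p = 0.000534). Both carry a GTTGCC within the 150 bases printed above. 1700015E13Rik (Spata46, ENSMUSG00000042800) had 35, 38 and 20 counts in WT and 2, 5 and 0 in Trf2-/- mice, a log2 change of -3.43 ± 0.51 (SE, edgeR adjusted p = 0.00153). It lies whole inside Nos1ap on the opposite strand. 1700020L24Rik (ENSMUSG00000035085), which overlaps Mmp28 on the opposite strand, had 23, 36 and 28 counts in WT and 1, 6 and 0 in Trf2-/- mice, a log2 change of -3.36 ± 0.61 (SE, edgeR adjusted p = 0.00356). Whether the counting used the strand is not given in the sources used here, so reads of such pairs may not be separate.

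The remaining low genes of this group had under 30 counts in each WT mouse. The X-linked 1700008I05Rik (Tcp11x2, ENSMUSG00000058252) had 19, 29 and 11 counts in WT and 4, 4 and 2 in Trf2-/- mice, a log2 change of -2.28 ± 0.44 (SE, edgeR adjusted p = 0.00477). 1700113H08Rik (ENSMUSG00000047129) had 19, 29 and 14 against 4, 6 and 3 counts, a log2 change of -1.99 ± 0.39 (SE, edgeR adjusted p = 0.00527). 1700007B14Rik (Iqcm, ENSMUSG00000031620), named for a calmodulin-binding IQ motif, had 20, 17 and 11 against 5, 5 and 1 counts, a log2 change of -1.86 ± 0.40 (SE, edgeR adjusted p = 0.00807). Iqcm also overlaps the pseudogene Gm7901 on the opposite strand. In each of the 3 the highest mutant count lay under the lowest WT count. 1700034I23Rik (ENSMUSG00000074619), which lies whole within 3110057O12Rik on the opposite strand, had 25, 16 and 23 against 4, 9 and 2 counts, a log2 change of -1.85 ± 0.43 (SE, edgeR adjusted p = 0.0121). 1700024B05Rik (ENSMUSG00000052334) had 20, 26 and 11 against 2, 9 and 2 counts, a log2 change of -1.86 ± 0.51 (SE, edgeR adjusted p = 0.0236). It overlaps Gm3543 and Gm6401 on the opposite strand, and its adjusted p was 0.0636 without WT mouse 1, 0.0911 without WT mouse 2 and 0.0820 without Trf2-/- mouse 1.

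1700029F12Rik (ENSMUSG00000052075, chr13:97791819-97804317) stood out among the large decreases by its level. It had 2373, 2023 and 1690 counts in WT and 618, 663 and 239 in Trf2-/- mice, or 80.3 ± 2.66 against 22.7 ± 6.84 CPM (mean ± SD, n = 3 mice per genotype). Its log2 change was -1.81 ± 0.17 (SE, edgeR adjusted p = 0.000384), it overlaps no other gene, and RefSeq lists it as protein-coding under the clone name.

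**Figure D5:**
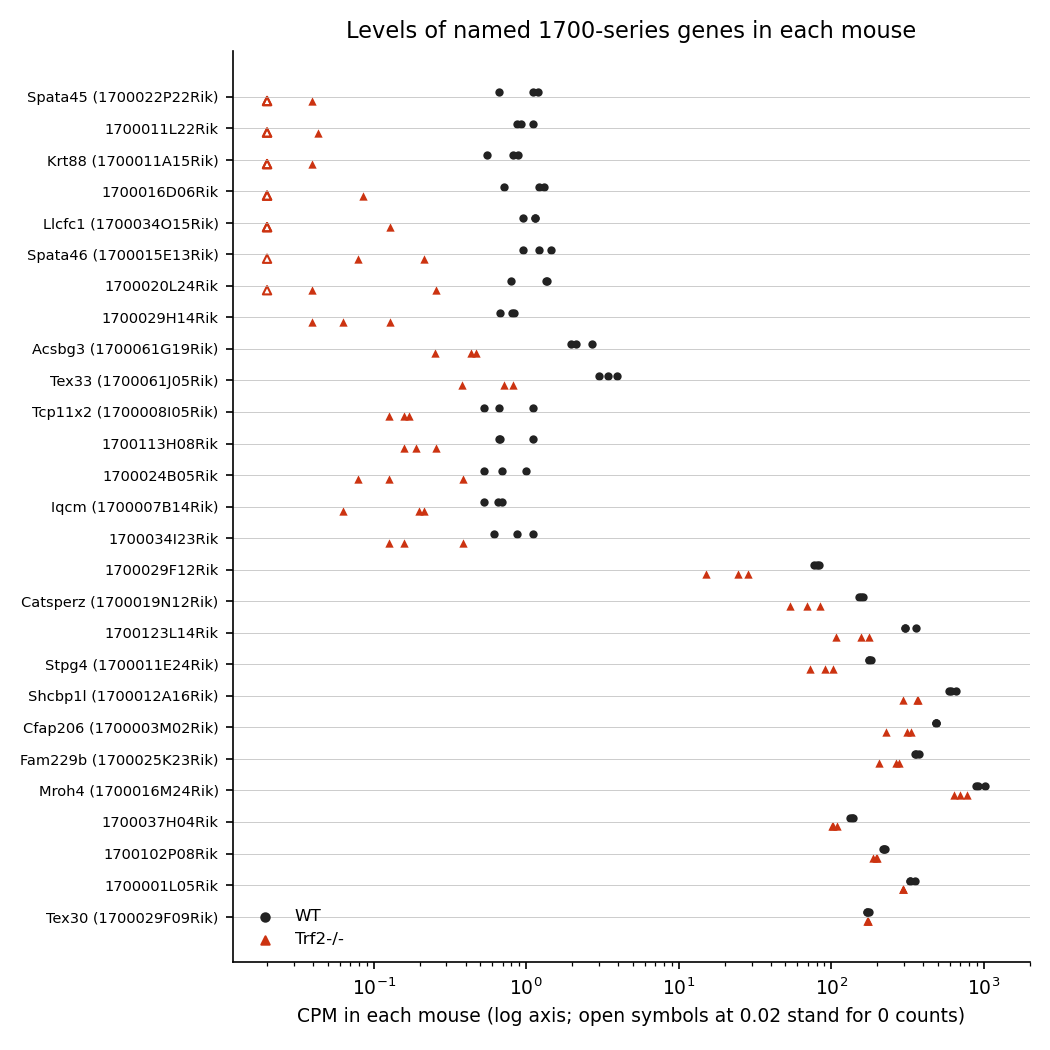
CPM (log axis) of the named 1700-series genes in each WT (black circles) and Trf2-/- mouse (red triangles), ordered by log2 fold change with the largest decrease at the top. Open symbols stand for 0 counts. The top genes lie near 1 CPM in WT and fall to 0 or a few reads, and the symbols of the genotypes draw together towards the bottom, at 173 CPM in both for Tex30.

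The 8 members of highest level held 41.7% of all reads (as CPM) on the 207 genes in WT, and they changed by less than the large decreases named above. Their log2 changes ran from -1.18 to -0.19, on both sides of the median of -0.70 of all tested members. 1700019N12Rik (Catsperz, a subunit of the CatSper calcium channel of the sperm tail, ENSMUSG00000050623) had 4668, 3979 and 3290 counts in WT and 1748, 1973 and 848 in Trf2-/- mice, or 202 against 88.5 RPKM, a log2 change of -1.18 ± 0.13 (SE, edgeR adjusted p = 0.000541). None of the 3 motifs stands in the promoter printed above. 1700123L14Rik (ENSMUSG00000072878), which RefSeq lists as a transcribed pseudogene and which lies within Fam19a1 on the opposite strand, is uncertain, since it may share reads with a related gene. It had 10309, 7955 and 6392 against 3966, 4129 and 1710 counts, a log2 change of -1.13 ± 0.15 (SE, edgeR adjusted p = 0.00107). 1700011E24Rik (Stpg4, ENSMUSG00000036557) had 5230, 4598 and 3713 against 2297, 2411 and 1147 counts, a log2 change of -1.002 ± 0.11 (SE, edgeR adjusted p = 0.000481). It stands at the very edge of the 2-fold limit.

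The other 5 of the 8 did not reach 2-fold. 1700012A16Rik (Shcbp1l, of the meiotic spindle, ENSMUSG00000042708) had 18864, 15853 and 12396 counts in WT and 9185, 8704 and 4663 in Trf2-/- mice, a log2 change of -0.85 ± 0.09 (SE, edgeR adjusted p = 0.00044). 1700003M02Rik (Cfap206, a flagellar protein at the base of the radial spokes, ENSMUSG00000028294) had 14033, 12735 and 10069 against 7967, 7808 and 3631 counts, a log2 change of -0.73 ± 0.12 (SE, edgeR adjusted p = 0.00212). Both passed the adjusted p with no overlap between the genotypes. 1700025K23Rik (Fam229b, ENSMUSG00000051736), highest of all members per length at 347 RPKM in WT and 239 RPKM in Trf2-/- testis, had a log2 change of -0.53 ± 0.10 (SE, edgeR adjusted p = 0.00475). 1700016M24Rik (Mroh4, ENSMUSG00000022603), with the most counts, had 29268, 24030 and 18622 in WT and 17573, 17998 and 10056 in Trf2-/- mice, a log2 change of -0.43 ± 0.08 (SE, edgeR adjusted p = 0.0035). 1700102P08Rik (ENSMUSG00000032611) had 6293, 5767 and 4671 against 4961, 4658 and 2953 counts, a log2 change of -0.19 ± 0.04 (SE, edgeR adjusted p = 0.0122).

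Abundant members with small changes were also found. For 31 of the 155 tested, the 95% interval of the log2 fold change lay within 0.5 of 0, and 4 of these are given by their level. 1700029F09Rik (Tex30) had 173 ± 2.79 CPM in WT and 173 ± 1.51 CPM in Trf2-/- testis (mean ± SD, n = 3 mice per genotype), and its interval ran from -0.09 to 0.10. It overlaps Kdelc1 on the same strand. 1700001L05Rik, a long non-coding RNA in RefSeq, had 337 ± 13.0 against 297 ± 0.894 CPM, with an interval of -0.28 to -0.08. 1700102P08Rik had 221 ± 2.45 against 194 ± 6.85 CPM, with an interval of -0.29 to -0.09. 1700037H04Rik had 135 ± 2.88 against 104 ± 4.01 CPM, with an interval of -0.48 to -0.27. All but Tex30 still passed the adjusted p in the lower direction.

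A role could be assigned from the current symbol to 52 of the 207 genes. Cilium, axoneme and flagellum proteins were tested in 12 of 14 cases. Of these, 9 were lower by the adjusted p (75.0%, against 68.4% of all tested members and 20.2% of all genes) and 2 were called (16.7%, against 33.5% and 4.3%), and none was higher. Besides Catsperz, the call fell on 1700019L03Rik (Cfap157, a protein of the sperm tail), with 514, 485 and 384 counts in WT and 128, 166 and 67 in Trf2-/- mice, a log2 change of -1.72 ± 0.16 (SE, edgeR adjusted p = 0.000334). Close to the limit were 1700026D08Rik (Cfap161) at -0.96 and 1700007G11Rik (Cfap299) at -0.94, whose values did not overlap between the genotypes. 1700019E19Rik (Ift43, part of the intraflagellar transport train) was at -0.40 with a 95% interval of -0.63 to -0.17, and 1700026L06Rik (Spaca9) at 0.01 with one of -0.32 to 0.35, both apart from the -2.09 to -1.36 of Cfap157. Those named here beside Catsperz and Cfap206 were chosen after their values were seen.

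Of 16 genes with testis or sperm names, 10 were tested, 8 were lower by the adjusted p and 6 were called lower (60.0%, against 33.5% of all tested members and 4.3% of all genes), none higher, and their median was -1.99 (log2). The 6 were Spata45, Spata46, Llcfc1, Tex33 and Tcp11x2, described above, and 1700027D21Rik (Spatc1l), with 56, 64 and 60 counts in WT and 19, 20 and 9 in Trf2-/- mice, a log2 change of -1.69 ± 0.25 (SE, edgeR adjusted p = 0.00136). The symbol of Llcfc1 names neither testis nor sperm, whereas Spaca9, which has a sperm name and hardly changed, was counted with the cilium proteins. The share and median of this group depend on that assignment. All of the 6 but Spatc1l had a Trf2-/- mouse under the limit of the low-count filter (0.424 CPM) and passed it through the WT mice. Of the 27 members that passed that way 22 were called lower (81.5%), so the share and median of this group are set in part by the filter. 1700021C14Rik (Tsacc, a helper of the testis kinase Tssk6) had 44.7 ± 0.199 against 34.7 ± 6.15 CPM (mean ± SD, n = 3 mice per genotype), a log2 change of -0.36 ± 0.11 (SE, edgeR adjusted p = 0.038). Enzymes, transporters and organelle proteins were tested in 12 of 15 cases, with a median of -0.25 (log2). By the adjusted p 7 were lower (58.3%, against 68.4% of all tested members and 20.2% of all genes). Called lower were 2 (16.7%, against 33.5% and 4.3%). The called genes were Acsbg3 and 1700013N18Rik (Ube2d2b, of the ubiquitin-conjugating enzymes), the latter with 4729, 3844 and 3378 counts in WT and 1769, 1893 and 757 in Trf2-/- mice and a log2 change of -1.24 ± 0.15 (SE, edgeR adjusted p = 0.000764). In the same group 1700034H14Rik (Timm21, of mitochondrial protein import) was at 0.06, with an interval of -0.11 to 0.23. Of 5 genes for histones and chromatin 2 were tested and 1, H2bfm, was higher by the adjusted p, as were 1.29% of all tested members and 11.2% of all genes. Of the 2 for meiotic chromosomes and spindle, Shcbp1l was lower by the adjusted p, and the meiotic 1700123I01Rik (Majin, which ties telomeres to the nuclear envelope) was at 0.18 with an adjusted p of 0.0535 (edgeR). Spatc1l, Ube2d2b, Tsacc, Timm21 and Majin were chosen after their values were seen.

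Both members that were higher by the adjusted p stayed under 2-fold, and they too were named after their values were seen. 1700014N06Rik (H2bfm, an X-linked histone H2B variant) had 98, 79 and 67 counts in WT and 114, 116 and 90 in Trf2-/- mice, or 3.22 ± 0.194 against 5.06 ± 0.588 CPM, a log2 change of 0.64 ± 0.15 (SE, edgeR adjusted p = 0.0105). 1700024P16Rik (Fyb2, named for its likeness to the adaptor protein Fyb) had 811, 745 and 661 counts in WT and 997, 763 and 532 in Trf2-/- mice, a log2 change of 0.26 ± 0.09 (SE, edgeR adjusted p = 0.0466). Raw counts of Fyb2 overlap between the genotypes, whose libraries differ in depth. In CPM all Trf2-/- mice lay above all WT mice, and the mean was 29.5 in WT and 35.3 in Trf2-/- testis. Fyb2 lost the adjusted p with DESeq2 size factors (0.0529), the DESeq2 Wald test (0.0568, and 0.0567 with shrinkage), at least 10 counts in every mouse (0.0610) and the replicate block (0.0745). Fyb2 also lost it in 5 of the 6 fits without 1 mouse (up to 0.172), whereas H2bfm kept it in all of these. There were 14 X-linked members. They were tested in 5 cases and had a median of 0.19 (log2), where all 647 tested X-linked genes had a median of 0.20. Called lower was 1 of the 5 (Tcp11x2), against 6 of the 647 (0.927%). By the adjusted p, 1 of the 5 (H2bfm) was higher, against 22.1% of the 647. Without the X, 51 of 150 members were called lower (34.0%) and the median was -0.71. This difference between chromosomes was not tested.

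The next genes are on the list of genes that the study's supplement shares with CREM, a list drawn from these samples, so their direction is no independent evidence. 1700018C11Rik (Tex48) had 8, 17 and 11 counts in WT and 0 in every Trf2-/- mouse, at least 2.56-fold lower against a limit of 3 counts per library, and it was too low to be tested. 1700067P10Rik, a long non-coding RNA in RefSeq, had 24, 20 and 13 counts against 1, 1 and 0, a ratio of 24.2 (exact 95% interval 6.41 to 205 for counting error, edgeR adjusted p = 0.000691). 1700029J11Rik (Fam209) had 43, 43 and 25 against 9, 20 and 4 counts, a log2 change of -1.51 ± 0.38 (SE, edgeR adjusted p = 0.0158), and its adjusted p was between 0.0568 and 0.0608 without WT mouse 1, WT mouse 2 or Trf2-/- mouse 1. 1700029H14Rik, given above, is also on it.

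Neighbours were examined where a member lay within 20 kilobases of another, which held for 3 pairs. 1700025F22Rik (Ms4a19) and 1700017D01Rik (Ms4a20), of the Ms4a family of membrane proteins, lie 8785 bases apart on chromosome 19. Ms4a19 had 629, 451 and 418 counts in WT and 265, 252 and 67 in Trf2-/- mice, a log2 change of -1.18 ± 0.27 (SE, edgeR adjusted p = 0.0102). Ms4a20 had 1739, 1650 and 1292 counts in WT and 978, 953 and 377 in Trf2-/- mice, a log2 change of -0.83 ± 0.16 (SE, edgeR adjusted p = 0.00487). In both the Trf2-/- mouse 3 was far below the other mutants, and without it the log2 fold change of Ms4a19 was -0.88. 1700003F12Rik and 1700007I08Rik (Actl10), 1772 bases apart on chromosome 2, were at -0.82 (standard error 0.26, edgeR adjusted p = 0.0398) and -0.63 (standard error 0.31, edgeR adjusted p = 0.152). In the pair on chromosome 5, Cfap299 overlaps 1700010H22Rik, which had a single count in all mice.

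Several calls on abundant members were lost without Trf2-/- mouse 3 or after the shrinkage of DESeq2. 1700028J19Rik, a long non-coding RNA in RefSeq, had 5007, 4465 and 3624 counts in WT and 2100, 2186 and 927 in Trf2-/- mice, and its log2 fold change moved from -1.13 to -0.96 without that mouse. 1700010B08Rik moved from -1.18 to -0.98, 1700023A16Rik (Smco2) from -1.08 to -0.96, 1700086L19Rik from -1.06 to -0.79 and 1700123L14Rik from -1.13 to -0.95, all still past the adjusted p. Stpg4 moved from -1.002 to -0.87. The shift of 1700008F21Rik (Ccdc7b), with 1223, 964 and 909 against 423, 462 and 119 counts, was -1.45, and -0.94 after shrinkage.

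The members too low for the test were described by their sums and counts. Their summed counts were 288, 277 and 209 in WT and 113, 102 and 65 in Trf2-/- mice, or 10.0, 10.6 and 10.0 against 4.48, 4.37 and 4.11 CPM. Of the 52 genes, 41 (78.8%) had the higher mean CPM in WT, as had 50.0% of all 9819 untested genes. Of the 52, 24 (46.2%) were above 3 counts in some WT mouse and at or under it in each Trf2-/- mouse, and 3 (5.77%) were the reverse, against 10.2% and 6.16% of all untested genes. The groups do not overlap in this sum, and the same Trf2-/- mice held fewer round spermatid marker reads, whose part in it was not tested. A further limit is that 15 of the 207 genes had no more than 3 counts in any mouse, so no difference was detectable for them at this depth.

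The members called lower had lower levels than those not called, and a similar number of exons. They had a median of 1261 bases, 5 exons and 588 coding bases, against 1570 bases, 5 exons and 678 coding bases in those tested and not called, and 3290.5 bases, 9 exons and 1389 coding bases over all tested protein-coding genes. Their median level fell from 2.21 RPKM in WT to 0.61 RPKM in Trf2-/- testis, while that of the tested genes not called was 9.25 and 8.71 RPKM. In all 52 the genotypes did not overlap, but the calls were made on the same mice, so this is no further support. An interval of the log2 fold change wholly below -1 was found in 23. Of the 52, 22 had passed the low-count filter through the WT mice alone, so the lower level of the called members is set in part by the filter. Under the alternatives tried, 26 of the 52 kept their call wherever they were tested and 26 lost it at least once, 7 of them only to the shrinkage.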

How the data were processed

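Testis RNA from 3 WT and 3 Trf2-/- animals, 21 days old, was profiled by single-end, strand-specific total RNA-seq. The authors aligned reads to mm9 (NCBIM37) with TopHat and deposited raw counts per gene, which are used here as deposited. The submitters' processing notes also name CASAVA 1.8.2, TopHat2 2.0.10, Bowtie2 2.1.0, HTSeq 0.5.4p3 and DESeq2 1.0.19. The strand setting and the treatment of reads shared between copies of a gene are not given in the sources used here. Another 12 columns of normalized values per mouse were not used.

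All genes were fitted with edgeR 4.0.16 in R 4.3.3 (filterByExpr, TMM factors, glmQLFit, glmQLFTest), and p-values were adjusted by Benjamini-Hochberg over 16924 genes. The standard error is the size of the log2 fold change divided by the square root of F. CPM are counts scaled by TMM library sizes, and RPKM are CPM per kilobase of deposited length. Ratios of pooled counts have exact 95% intervals. The per-mouse log2 ratios used a pseudocount of 0.1 CPM. The fit was tested on simulated data. Every pair of libraries of a genotype differed by more than sampling noise. The methods call the mice independent biological replicates.

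Named genes are the 10 largest decreases with at least 10 counts in each WT mouse and no overlap, the 6 with the largest bounds at the floor of 3 counts, the 8 highest WT levels, the 4 highest with an interval within 0.5 of 0, the CREM list, neighbours within 20 kilobases and the 8 highest whose call an alternative removed. Members and lists were chosen with earlier results of these data known. Alternatives were DESeq2 1.42.0 size factors, library size alone, the Wald test of DESeq2 with and without shrinkage, other filters, a replicate block, each mouse left out, an adjusted p of 0.01 and members that overlap no gene. Restriction to genes that RefSeq lists as protein-coding was added after seeing the data. Promoters came from RefSeq tables of GRCm38.p6, matched by symbol, and gene coordinates are of NCBIM37.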

Additional observations from a re-analysis of the deposited data

How the results depend on the processing

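The count of members called lower, 52 of 155, was 52 with DESeq2 size factors, 47 with library size alone, 50 with the DESeq2 Wald test, 65 of 207 with all genes of at least 1 count, 42 at an adjusted p of 0.01, 38 among members that overlap no gene and 39 among those RefSeq lists as protein-coding. It moved to 28 with shrunken fold changes of DESeq2 and to 29 of 124 with at least 10 counts in every mouse. Leaving out each mouse in turn gave from 44 of 159 without Trf2-/- mouse 3 to 59 of 161 without Trf2-/- mouse 2. The share called lower over all genes was 4.3% in the main fit and 3.35% with all genes of at least 1 count. It was 2.81% with at least 10 counts in every mouse and 2.32% with shrunken fold changes. For the other settings it is not given, so their counts cannot be set against a background. No member was called higher under any of the settings, while 2, H2bfm and Fyb2, passed the adjusted p upwards in edgeR. That count of 2 moved to 1 with DESeq2 size factors, the Wald test, shrunken fold changes, at least 10 counts in every mouse or the replicate block. It moved to 6 with library size alone and to 0 at an adjusted p of 0.01. With all genes of at least 1 count it was 3, and with a mouse left out 1 to 2. The median of -0.70 ran from -0.78 to -0.55. Of 1700029F09Rik (Tex30), at 0.01, the sign turned with at least 10 counts in every mouse (-0.0056) and when WT replicate 3 (-0.0051) or Trf2-/- replicate 1 (-0.0079) or 2 (-0.014) was left out, with a range of -0.014 to 0.018 over the mice left out. For the named genes, 462 values kept direction and call, 35 lost the call and 4 turned. The cause was not tested.

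No pairing of the mice by replicate number was seen. The correlations of same-numbered mice were -0.10, -0.03 and -0.10, and those of differently numbered mice ran from -0.03 to 0.11. They use deviations from means of only 3 mice, so they cannot exclude a pairing. With the replicate block 53 members were called lower. Depth limits the 52 untested members and the low band most, where a call rests on few WT reads, and Trf2-/- mouse 3 is the shallowest library.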
